A study of Mus musculus with 3 samples.

Results

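Broad domains of histone H3 trimethylated at lysine 4 (H3K4me3) were examined in the cerebral cortex of mouse embryos at E13.5. They were defined by joining H3K4me3-ChIP peaks that lay on the same chromosome with gaps of 1000 bp or less, and keeping the joined regions of 4000 bp or longer. This gave 312 broad domains of 16582 merged domains, 1.88% of them, and 16270 shorter merged domains served for comparison. The study made 3 libraries from cortices at this stage, an input, a ChIP with an antibody to the NF-YC subunit (NF-Y-ChIP) and a ChIP with an antibody to H3K4me3 (H3K4me3-ChIP), each a single library. The labels give no genotype, strain or treatment for these embryos, and the number of cortices pooled in a library is not given in the sources used here. Peak lists of both antibodies were analysed as held here, with 18816 H3K4me3-ChIP peaks and 733 NF-Y-ChIP peaks, and every share below rests on these lists. The paper counts more H3K4me3 regions than this list holds, and the same number for NF-Y. They hold no read counts, so the depth is unknown, and no peak list of the input was analysed here. In bulk tissue, fewer cells of a type and less of the mark per cell cannot be told apart. The peaks were called in narrow mode, which can split a long stretch of a broad mark into several peaks. Peaks of a single library are not independent replicates, so no p-value is given and every interval is a 95% interval that covers counting error only.

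H3K4me3 is laid down by SET1 and MLL methyltransferases at the starts of transcribed genes, mostly at promoters rich in CpG dinucleotides, and at most genes it forms a short region on either side of the transcription start site (TSS). In many tissues a minority of genes carry much longer stretches of the mark, and genes that define the identity of a cell are known to be frequent among them. NF-Y is a trimer of NF-YA, NF-YB and NF-YC that binds the CCAAT box, a common element of proximal promoters.

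The 3 genes for the neural microRNA miR-9 all lay in broad domains, and those domains ranked 1, 8 and 10 by length. The mature sequences of miR-9 and of 4 other microRNAs encoded in broad domains are shown because the Mir9 loci hold the longest domains without a protein-coding gene, and the others are microRNA genes found in shorter members. They are taken from RefSeq (GRCm38.p6), written 5′ to 3′ with the seed, bases 2 to 8, in capitals, and no seed is shared between them. The copies of miR-9-5p map to chr13:83738821-83738843, chr3:88215613-88215635 and chr7:79505279-79505301 on the plus strand and give the same sequence, and those of miR-9-3p map to chr13:83738858-83738879, chr3:88215652-88215673 and chr7:79505318-79505339. The others map to chr17:17830366-17830387 (let-7e-5p), chr17:17830194-17830215 (miR-99b-5p), chr9:41581940-41581961 (miR-125b-5p) and chr3:89227126-89227147 (miR-92b-3p, minus strand). Apart from the Mir9 loci, the microRNAs were chosen after their values were seen.
miR-9-5p: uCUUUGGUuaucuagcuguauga
miR-9-3p: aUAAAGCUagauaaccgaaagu
let-7e-5p: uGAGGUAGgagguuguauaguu
miR-99b-5p: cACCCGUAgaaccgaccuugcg
miR-125b-5p: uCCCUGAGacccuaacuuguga
miR-92b-3p: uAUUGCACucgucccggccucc

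The next sequences are the 200 bp upstream of a TSS in 3 broad domains, from the reference (GRCm38, plus strand), and they were picked after their values were seen among windows that overlap no annotated exon. Sox2 (chr3:34650205-34650404) and Hes1 (chr16:30064184-30064383), both transcription factors that maintain neural progenitors, are shown for their CpGs, which are in capitals and number 28 and 27. The median over the 291 broad domains with a protein-coding TSS was 17.0 CpGs in this window (interval 15 to 18), and over the shorter domains it was 17.0 too.
Sox2 promoter: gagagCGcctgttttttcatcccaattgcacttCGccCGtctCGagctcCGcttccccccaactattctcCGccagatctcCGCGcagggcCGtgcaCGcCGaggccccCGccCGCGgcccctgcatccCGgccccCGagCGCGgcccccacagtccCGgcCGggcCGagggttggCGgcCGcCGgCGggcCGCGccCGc
Hes1 promoter: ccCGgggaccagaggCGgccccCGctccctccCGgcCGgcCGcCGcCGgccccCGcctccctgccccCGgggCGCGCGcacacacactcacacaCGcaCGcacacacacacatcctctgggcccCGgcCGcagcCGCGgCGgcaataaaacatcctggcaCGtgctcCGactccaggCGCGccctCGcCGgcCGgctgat
Pou3f3 (chr1:42695568-42695767), a POU-domain transcription factor of cortical neurons, is shown for its 3 copies of CCAAT, here in capitals, in a domain without an NF-Y-ChIP peak.
Pou3f3 promoter: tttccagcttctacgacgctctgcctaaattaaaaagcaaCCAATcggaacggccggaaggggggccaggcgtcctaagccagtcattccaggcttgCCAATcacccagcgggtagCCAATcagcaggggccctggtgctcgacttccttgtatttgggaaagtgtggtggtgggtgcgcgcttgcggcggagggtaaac

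The 312 domains were ranked by length. The median was 4853 bp (interval 4675 to 5024), with quartiles of 4302 and 5820 bp, and 24 domains reached 8000 bp. Together they spanned 1740235 bp, 7.49% of the sequence in merged domains. The shorter merged domains had a median of 1236 bp. The domains just inside the limit were those of Actrt3 and Mynn (4000 bp), Negr1 (4002 bp) and Nr3c2 (4006 bp), and those just outside were Btg2 (3996 bp), Zfhx4 (3995 bp) and Nrxn3 (3991 bp), so the limit falls within a continuous range of lengths.

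**Figure D1:**
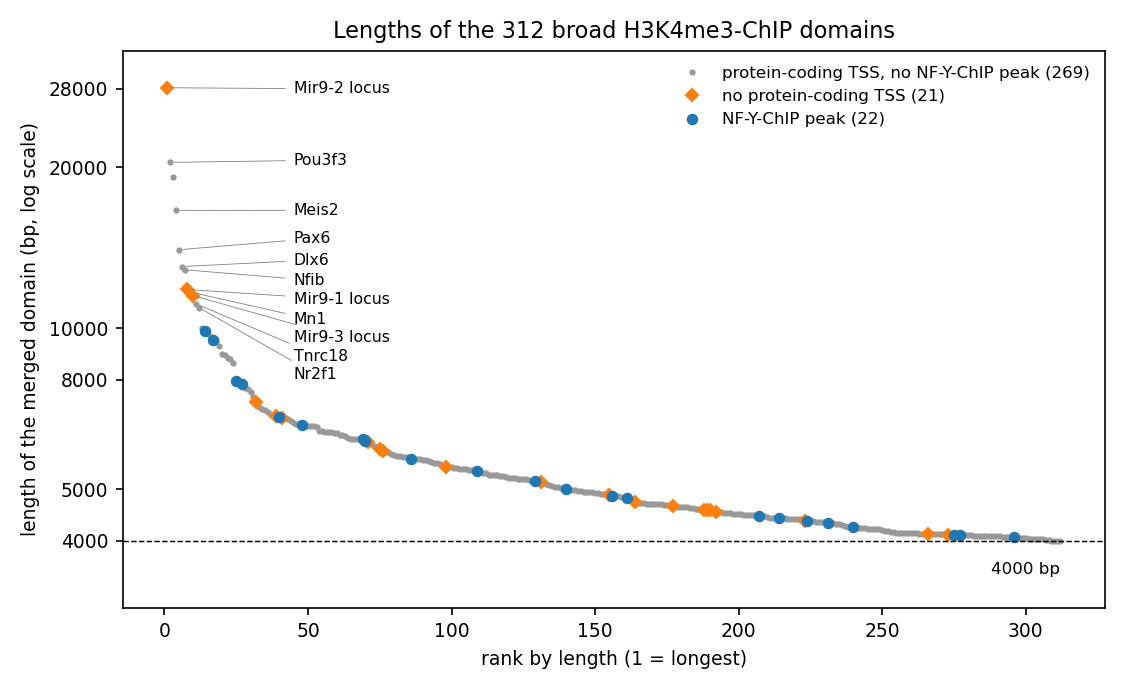
Length of each broad domain (bp, log scale) against its rank, with 11 of the 12 longest named. Orange diamonds are the 21 domains without a protein-coding TSS, blue circles the 22 overlapped by an NF-Y-ChIP peak and grey points the other 269, and the 12 longest hold the 3 Mir9 loci and no NF-Y-ChIP peak.

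The longest domain, chr13:83713573-83741713, ran over 28141 bp and held no protein-coding TSS. It contained the starts of Mir9-2 and of the noncoding genes C130071C03Rik, Gm26803 and Gm33366, and the nearest protein-coding TSS, that of Mef2c, lay 60685 bp away. Next came Pou3f3 with 20410 bp. Meis2, a homeobox factor of the TALE class, had 16603 bp and Pax6, a homeobox factor of radial glia, had 14014 bp. The domain of Dlx6, a homeobox gene of ventral forebrain neurons, spanned 13035 bp, and that of Nfib, a nuclear factor I gene needed for glial and projection neuron development, spanned 12854 bp. The Mir9-1 locus (11809 bp), Mn1 (11680 bp), a transcriptional cofactor, the Mir9-3 locus (11501 bp), Tnrc18 (11100 bp) and Nr2f1 (10926 bp), a nuclear receptor that patterns cortical areas, were also among the 12 longest.

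These long domains differed in how they were built. The Mir9-3 domain was 1 unbroken peak of 11501 bp with a fold enrichment (the ChIP signal over the background estimated by the peak caller) of 38.4. Pax6 was the most fragmented, with 11 peaks, of which 1 of 3729 bp had a fold enrichment of 38.3 and the other 10 stayed between 4.59 and 7.81. Pou3f3 and Nfib had 10 peaks each. In Pou3f3 the strongest peak, of 6019 bp, had 54.4 and a neighbour of 4115 bp had a lower value, whereas in Nfib a peak of 7586 bp had 18.8 and no other exceeded 9.11. At the Mir9-2 locus the peaks of 12543, 6615, 4545 and 2492 bp had fold enrichments from 24.4 to 44.3, each a single value per peak. Its outermost peaks, of 888 and 178 bp, were weak, with 6.60 and 4.36. Pax6 and Nfib had 1 stronger peak each, with weak peaks around it.

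**Figure D2:**
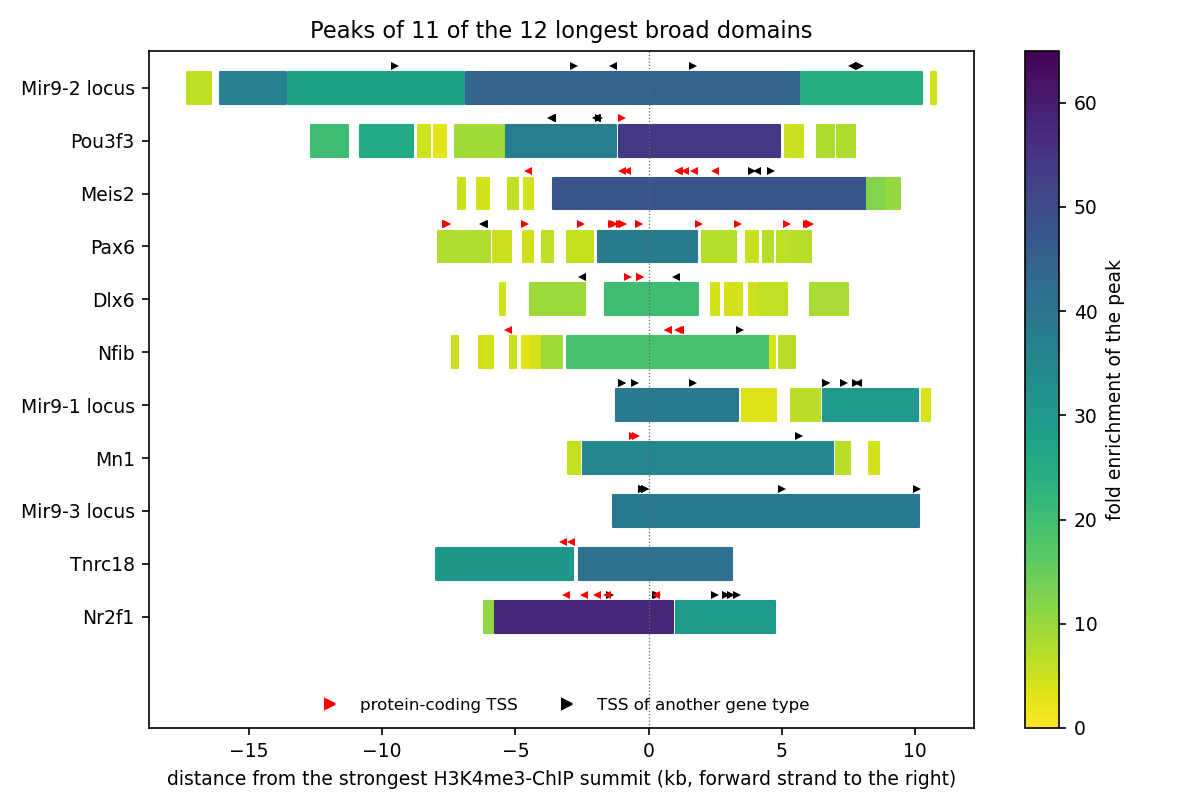
Peaks of 11 of the 12 longest domains drawn to scale by distance from their strongest H3K4me3-ChIP summit (kb), coloured by fold enrichment, with triangles at the TSSs of protein-coding (red) and other genes (black) pointing in the direction of transcription. The Mir9-3 domain is 1 peak, and Pax6 has 11, with the 10 outer ones at fold enrichments of 4.59 to 7.81.

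Over all members, 91 were made of 1 peak, 105 of 2 and 116 of 3 or more. A single peak reached 4000 bp in 160 of the 312 domains (51.3%), and the other 152 were broad only after peaks were joined. The highest fold enrichment in a domain had a median of 40.8, with quartiles of 29.4 and 52.3, against 31.1 in the shorter domains. That lower value came with the domains under 1000 bp (10.7), since the medians were 46.0 from 2000 to under 3000 bp and 43.3 from 3000 to under 4000 bp. These values come from the peaks that defined the domains and are given as a description. Length and fold enrichment ranked genes differently. The highest values were at Tle3 (81.7), a Groucho family corepressor, Fem1c (80.2), Ptma (79.8), which encodes prothymosin alpha, Arrdc3 (79.1) and the Actrt3 and Mynn domain (75.3), all between 4000 and 5065 bp long. The lowest were a region on chromosome 16 inside Bcl6 (9.36), Otx2 (12.6), a homeobox gene of the anterior brain, and the Islr2 and Islr domain (12.6). The 24 domains of 8000 bp or longer had a median of 38.5, and those from 4000 to under 5000 bp had 42.6.

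A TSS of any annotated gene lay in 306 of the 312 broad domains (98.1%, interval 95.9 to 99.1%), and a protein-coding TSS in 291 (93.3%). In the shorter domains these shares were 80.2% and 77.0%, but a protein-coding TSS lay in 48.4% of those under 1000 bp, 96.1% of those from 2000 to under 3000 bp and 95.5% of those from 3000 to under 4000 bp. Exactly 1 protein-coding gene started in 263 of the broad domains and 2 or more in 28. TSSs on both strands were found in 126 broad domains (40.4%) and in 16.8% of the shorter domains, a count that longer regions have more room for. Counted by gene identifier, 487 genes started in broad domains, of which 318 were protein-coding (317 by gene symbol), 46 lincRNAs, 43 antisense genes and 21 microRNA genes.

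The 6 broad domains without any TSS ranged from 4113 to 6122 bp. That on chromosome 11 (chr11:69414515-69420453) ended 840 bp from the start of Kdm6b, which encodes an H3K27 demethylase, and that on chromosome 3 (chr3:93443565-93448101) lay 1235 bp from the start of Tchh. The chromosome 1 region (chr1:82282699-82287583) was inside Irs1, the insulin receptor substrate, and the chromosome 15 region (chr15:85669950-85674511) was inside Lncppara. The longest, of 6122 bp on chromosome 13 (chr13:21166768-21172889), was 6556 bp from the nearest protein-coding TSS, that of Trim27.

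The 21 domains without a protein-coding TSS included, beside these 6, the hosts of several microRNAs. All 3 Mir124a genes, which encode the microRNA miR-124 of differentiating neurons, lay in broad domains, of 7285 bp (Mir124a-2), 5885 bp (Mir124a-3) and 5507 bp (Mir124a-1). Mir125b-1 lay in a domain of 6805 bp, whereas Mir125a and Mir125b-2 lay in none. Mirlet7e and Mir99b shared a domain of 4466 bp that also held the start of Spaca6. Of the other let-7 genes only Mirlet7i was in a merged domain, of 2853 bp. Among 197 annotated microRNA genes that started in a merged domain, 21 were in a broad one (10.7%, interval 7.08 to 15.7%), in 16 domains, so that several shared one. Broad domains held 7.49% of the merged sequence, which lies within that interval. Long noncoding RNA genes with a broad domain included Malat1 (6861 bp), Peg13 (4567 bp), and Pantr2 (4366 bp) and Sox2ot (4570 bp), which neighbour Pou3f3 and Sox2. Sox2ot also has a TSS in the Sox2 domain. In this annotation Zswim6 (4737 bp) and Trerf1 (4123 bp) are typed as processed transcripts and were counted as noncoding. These genes, Malat1 and the Mir9 loci apart, were chosen after their values were seen.

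Several broad domains came in neighbouring pairs. The gap between the Pou3f3 domain and that of Pantr2 was 5634 bp. The Sox2 domain (8949 bp), which also holds a TSS of Sox2ot, was 5771 bp from the domain of 4570 bp named by Sox2ot. The Dlx6 and Dlx5 domains were separated by 6537 bp, those of Zic5 and Zic2 by 7298 bp, and those of Dlx1 and Dlx2 by 7384 bp. In all, 10 pairs lay within 50000 bp of each other. By chromosome, the share of merged domains that were broad ranged from 0.984% on chromosome 16 to 4.05% on chromosome 18.

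Genes for transcription factors (TFs) of the developing cortex were frequent in the broad domains. Of all protein-coding genes with a TSS in any merged domain, called marked here, 317 of 13297 started in a broad domain, a background of 2.38%. Of cortical progenitor TFs, 23 of 32 marked genes did so (71.9%, interval 54.6 to 84.4%). Among the longest were Meis2, Pax6, Nr2f1 and Sall1, a zinc finger factor with 9870 bp. Eomes, the factor of intermediate progenitors, stayed below the limit with 3736 bp. Of projection neuron TFs, 17 of 31 did so (54.8%, interval 37.8 to 70.8%), led by Pou3f3, Nfib, Bcl11a (9990 bp), Pou3f2 (8749 bp) and Bcl11b (6618 bp), the factor known as Ctip2 in subcortical projection neurons. The lists were put together with earlier results of these data known, and their counts describe where the chosen domains lie.

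TFs of the ventral telencephalon were marked in 21 of 22 cases, and 6 were in broad domains (28.6%, interval 13.8 to 49.96%). These were Dlx6, Dlx1 (9466 bp), Vax1 (6558 bp), Zic1 (6273 bp), Dlx2 (4249 bp) and Dlx5 (4117 bp). Of the ventral factors below the limit, Nkx2-1, a factor of the medial ganglionic eminence chosen here after its value was seen, had 3890 bp with a fold enrichment of 6.64. By family, 9 of 16 marked Sox genes were in broad domains, among them Sox2 (8949 bp), Sox11 (8787 bp), Sox1 (7590 bp) and Sox21 (6558 bp), and 4 of 5 Zic genes and 4 of 6 Dlx genes were. Other families of developmental factors included 4 of 10 Id and Hes/Hey genes (40.0%, interval 16.8 to 68.7%), 2 of 7 Lhx genes (8.22 to 64.1%), 1 of 4 Pax genes (4.56 to 69.9%), 2 of 10 Pou genes (5.67 to 50.98%), 1 of 7 Nkx genes (2.57 to 51.3%), 3 of 22 Klf and Sp genes (4.75 to 33.3%) and 3 of 28 Fox genes (3.71 to 27.2%). None of 5 Irx genes (0 to 43.4%) and 3 Tbx genes (0 to 56.1%) was in a broad domain. Only 6 of 31 TFs of other lineages and 4 of 39 Hox genes were marked, and none of these was in a broad domain, with intervals of 0 to 39.0% and 0 to 49.0% that contain the background. In total, 46 of the 312 domains held a gene of the 3 telencephalic TF lists, including 12 of the 20 longest.

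Signalling and guidance genes were also found in broad domains. Of axon guidance genes, 12 of 28 were in broad domains (42.9%, interval 26.5 to 60.9%), led by the ephrins Efnb1 (6955 bp) and Efnb2 (6784 bp), the adhesion protein gene Flrt2 (6693 bp), the ephrin receptor gene Epha4 (5693 bp) and the plexin gene Plxna2 (5610 bp). Of Wnt, Fgf, Bmp and Shh signalling genes, 7 of 32 were, namely Ptch1 (5703 bp), Fzd8 (5688 bp), Spry2 (5656 bp), Smad7 (5603 bp), Axin2 (4704 bp), Fgfr2 (4635 bp) and Sfrp1 (4012 bp). By family, none of 13 marked Wnt genes (interval 0 to 22.8%, which contains the background) and 1 of 15 marked Fgf genes, Fgf11 (4302 bp), named after its value was seen, was in a broad domain. In the Notch pathway 4 of 23 were, the glycosyltransferase gene Lfng (5364 bp), the ligand gene Dll1 (4597 bp), the coactivator gene Maml3 (4139 bp) and the target gene Hey1 (4030 bp). Hes1 (7706 bp) and Hes5 (4702 bp), of the same Hes/Hey family as Hey1, were in broad domains too. They were counted in the cortical progenitor list and not here.

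Of growth and immediate early genes, 9 of 31 were in broad domains (29.0%, interval 16.1 to 46.6%). They were the 3 Myc family genes Mycn (6022 bp), Myc (4686 bp) and Mycl (4133 bp), the D-type cyclins Ccnd1 (5874 bp) and Ccnd2 (5024 bp), and Dusp4 (5759 bp), Ier2 (5597 bp), Jun (4755 bp) and Gadd45g (4249 bp). Chromatin regulators were in broad domains in 6 of 39 cases (15.4%, interval 7.25 to 29.7%). These were the H3K4 methyltransferase genes Setd1b (9880 bp) and Kmt2a (4664 bp), the remodeller genes Chd2 (4932 bp), Chd3 (4195 bp) and Arid1a (4616 bp), and Jarid2 (4853 bp), a Polycomb cofactor. Of RNA-binding and splicing genes and nuclear noncoding RNAs 5 of 30 were, or 4 of 27 protein-coding ones (14.8%, interval 5.92 to 32.5%). They were the noncoding RNA Malat1 and the genes Qk (6541 bp), Hnrnpa2b1 (4817 bp), Msi1 (4394 bp) and Srsf3 (4071 bp).

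Smaller shares were found for the remaining lists. Of synaptic and other neuronal genes, 3 of 40 were in broad domains (7.5%, interval 2.58 to 19.9%), Nlgn2 (5234 bp), a neuroligin, Celf4 (5219 bp), and Tubb3 (4928 bp), the tubulin of young neurons. None of the 43 S phase genes (interval 0 to 8.20%), 54 G2/M phase genes (0 to 6.64%), 80 cytosolic ribosomal protein genes (0 to 4.58%) or 37 proteasome genes (0 to 9.41%) that were marked was in a broad domain, and each of these intervals contains the background of 2.38%. Mki67 (3481 bp), Aspm (2061 bp), Ube2c (1697 bp) and Wdr62 (1695 bp), all genes of dividing cells, were in shorter domains. So were the NF-Y subunit genes Nfya (3003 bp), Nfyb (2155 bp) and Nfyc (1871 bp). Zinc finger Zfp genes had 9 of 300 (3.0%), close to the background. The labelled tissue was checked against marker lists, with 32 of 32 progenitor TFs marked, none of 13 microglia and blood cell markers marked, 3 of 11 endothelial and 8 of 12 meningeal and mural markers marked. None of the microglia, blood cell, endothelial, meningeal and mural markers was in a broad domain, with intervals for the last 2 lists of 0 to 56.1% and 0 to 32.4% that contain the background.

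**Figure D3:**
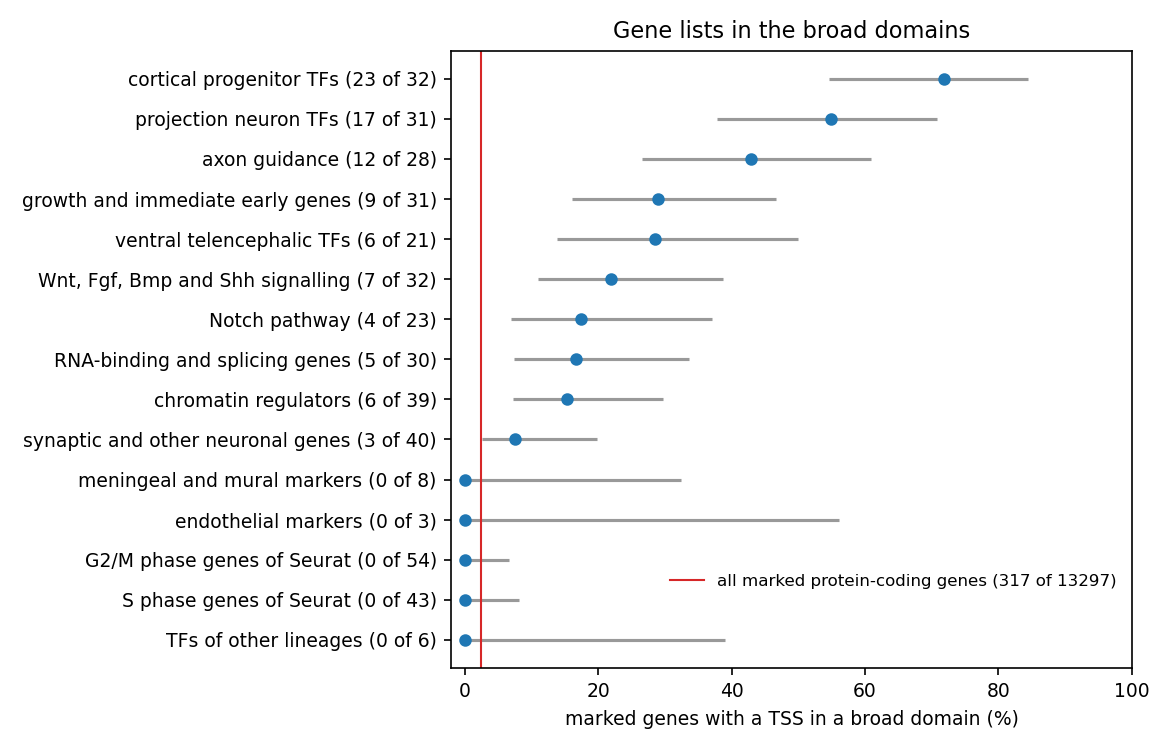
Share of the marked genes of each list with a TSS in a broad domain (%), with Wilson 95% intervals and the counts beside the names (the RNA-binding list includes 3 noncoding RNAs). The red line is the share over all marked protein-coding genes, 2.38%, and of the lists drawn, which leave out the gene families, both cortical TF lists lie furthest above it with 71.9% and 54.8%.

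The position of the domains around the start site was described in the 263 with 1 protein-coding gene, relative to the TSS nearest the strongest summit. They reached a median of 3408 bp downstream (interval 3316 to 3550) and 1545 bp upstream (1356 to 1736), and the downstream arm was the longer one in 209 (79.5%). In shorter domains the medians were 812 bp and 493 bp, and the share with a longer downstream arm was 77.5%, within the interval of the broad ones (74.2 to 83.9%). Individual domains went against this pattern. Setd1b reached 6861 bp upstream and 3018 bp downstream, and Pou3f3 11659 bp upstream and 8750 bp downstream. Both domains also held starts of other genes, such as AI480526 at Setd1b and Pantr1 at Pou3f3. In the 160 domains with no other gene TSS the upstream median was 1302 bp. The strongest summit was within 500 bp of the protein-coding TSS nearest it in 68.8% of broad domains and 95.5% of shorter ones. Arm lengths and this distance are limited by the domain length that the rule used. They are therefore given as a description.

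Gene length did not differ beyond its interval. The median gene length was 30453 bp (interval 22042 to 50488) in broad domains and 31446 bp (30513 to 32235) in shorter ones. Within the broad set the 18 genes with a domain of 8000 bp or longer had a median of 9548 bp (5635 to 39672), and those under 5000 bp had 46132 bp (26134 to 77762), with intervals that overlap. The domain covered the whole gene in 22 of 263 cases, including Pou3f3, Dlx1, Dlx6, Dmrta2, Sox1, Sox2 and Hes1, and in 31 of 11199 shorter domains. Longer domains have more room to cover a gene, so this difference is a description only.

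Sequence composition was not used to choose the domains and differed from that of shorter ones. In a window of the same size for both, 1000 bp on each side of the TSS, the ratio of observed to expected CpGs had a median of 0.749 in broad domains (interval 0.728 to 0.775) and 0.621 in shorter ones (0.617 to 0.625). CpGs per 100 bp were 6.80 (6.45 to 7.20) and 4.5 (4.45 to 4.55). The difference was not particular to domains of 4000 bp, since domains from 2000 to under 3000 bp and from 3000 to under 4000 bp had medians of 6.55 and 6.70 CpGs per 100 bp, and those under 1000 bp had 3.05. Over whole domains the order was reversed, with a ratio of 0.626 (0.607 to 0.651) in broad and 0.676 (0.673 to 0.679) in shorter ones.

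The profile around the TSS shows where the excess lay. In the first 250 bp downstream the mean was 9.24 CpGs per 100 bp in broad and 8.97 in shorter domains, close to equal. Between 1000 and 1250 bp downstream it was 4.54 and 1.79, and between 2500 and 2750 bp 2.65 and 1.13. On the upstream side, from 1250 to 1000 bp before the TSS, it was 4.0 and 1.43. The CpG-rich core of broad domains was thus of similar density at the TSS and wider, and between 4750 and 5000 bp downstream the means were 1.26 and 1.13. Over the whole domain, members ranged from 9.39 CpGs per 100 bp at Zswim6 to 1.25 at Adgrg1, an adhesion receptor gene, both named after their values were seen. The Mir9-1 locus had 1.83, and the 24 domains of 8000 bp or longer had a median of 3.96, so a high CpG density did not run along every broad domain.

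**Figure D4:**
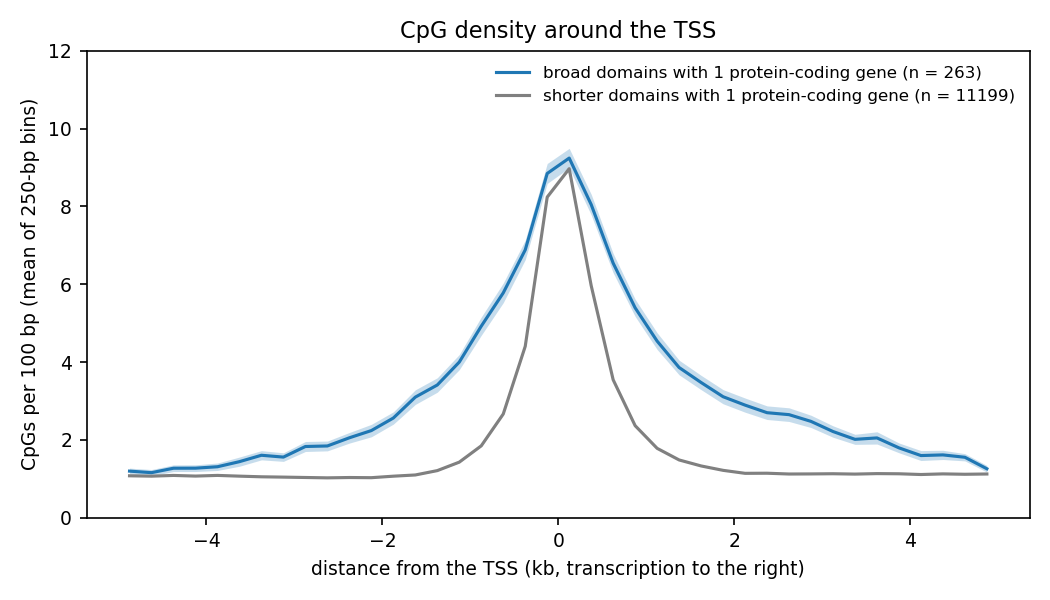
Mean CpGs per 100 bp in 250-bp bins up to 5 kb on each side of the TSS, with bands of 1 standard error over domains, in the 263 broad (blue) and 11199 shorter domains (grey) with 1 protein-coding gene. Both peak near 9 at the TSS, and the broad domains stay higher on both sides.

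NF-Y-ChIP peaks overlapped 22 of the 312 broad domains (7.05%, interval 4.70 to 10.4%) and 622 of the 16270 shorter domains (3.82%, interval 3.54 to 4.13%), against a background of 3.88% over all merged domains. The intervals do not overlap, but the share also moved with length below the limit. Shorter domains of 3000 bp or longer, a class set after the data were seen, had 8.01% (5.96 to 10.7%), those from 2000 to under 3000 bp had 7.76%, and those under 1000 bp had 1.12%. Per megabase of domain the order was the opposite, with 13.2 NF-Y-ChIP peaks in broad domains (8.38 to 19.8) and 29.2 in shorter ones (27.0 to 31.6). This contrast came with the domains from 1000 to under 3000 bp, since the class of 3000 bp or longer had 23.5 (16.9 to 31.9) and that under 1000 bp had 18.8 (14.6 to 23.9), both with intervals that overlap the broad one. When single peaks of 4000 bp or longer were used without joining, the share was 4.24% (2.07 to 8.50%) against 3.54%, and the intervals overlapped. They also overlapped among domains with exactly 1 protein-coding gene, with 6.84% (4.37 to 10.6%) of the broad and 4.32% (3.96 to 4.71%) of the shorter ones.

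**Figure D5:**
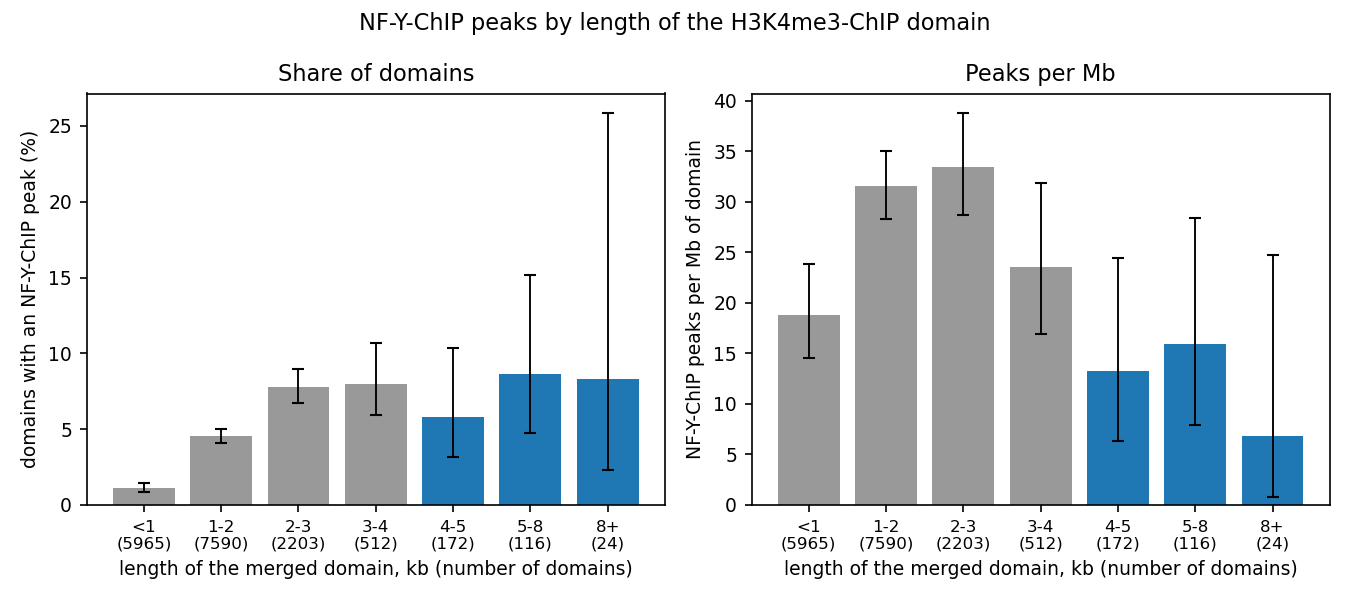
Share of merged domains overlapped by an NF-Y-ChIP peak (left, %, with Wilson 95% intervals) and NF-Y-ChIP peaks per Mb of domain (right, with exact Poisson 95% intervals) by length class, broad classes in blue. The share is 1.12% under 1 kb and stays between 5.81% and 8.62% from 2 kb on, while the number per Mb is highest, at 33.4, for 2 to 3 kb.

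Around start sites the comparison depended on the domains counted. With 1 protein-coding TSS per domain, the one nearest the strongest summit, an NF-Y-ChIP summit lay within 500 bp in 10 of 291 broad domains (3.44%, interval 1.88 to 6.21%) and in 4.05% of shorter ones (3.71 to 4.40%). When every protein-coding TSS of the same domains was allowed, the shares were 19 of 291 (6.53%, 4.22 to 9.97%) and 556 of 12532 (4.44%, 4.09 to 4.81%). The intervals overlap in both counts. Over all domains, with or without a protein-coding TSS, the same summits gave 6.09% (3.93 to 9.31%) of the broad and 3.42% (3.15 to 3.71%) of the shorter ones, and those intervals do not overlap. The 200 bp upstream of that TSS held the NF-Y motif, searched as CCAAT on both strands (CCAAT or ATTGG), in 84 of 291 broad domains (28.9%) and in 26.4% of all 12823 domains with such a TSS. Among these 84 promoters 4 had an NF-Y-ChIP summit within 500 bp (4.76%, interval 1.87 to 11.6%), and among the 3300 of shorter domains 407 had (12.3%, lower bound 11.3%). The intervals overlap only narrowly. In shorter domains of 3000 to under 4000 bp the count was 22 of 134 (16.4%, interval 11.1 to 23.6%), whose interval also overlaps the broad one narrowly. These motif counts use only the TSS nearest the strongest summit. Pou3f3, with 3 copies of CCAAT in its window, is one of the broad domains without an NF-Y-ChIP peak.

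The 23 NF-Y-ChIP peaks in broad domains sat at promoters. Their median distance to the nearest TSS was -83.0 bp, upstream, and 22 of the 23 were within 500 bp of one. Fold enrichment in the NF-Y-ChIP had a median of 6.41 (interval 5.75 to 7.42), against 6.80 (6.68 to 7.17) for the 628 peaks in shorter domains. A CCAAT or ATTGG was found within 50 bp of 21 of the 23 summits (91.3%) and of 92.4% of the summits in shorter domains, while windows of 50 bp on each side of the strongest H3K4me3-ChIP summits of all merged domains held one in 5.26%. The strongest peak, at Brd2 (11.9), which encodes a bromodomain reader of acetylated histones, was one of the exceptions without the motif, and it ranked only 88 among all 733 NF-Y-ChIP peaks.

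The motifs nearest the summit are shown for the other 9 of the 10 domains with the highest NF-Y-ChIP fold enrichment, as 25 bases of the plus strand (GRCm38) with the motif in capitals, so that ATTGG is a CCAAT box on the minus strand. Only the motif nearest the summit is capitalised, and the Arrdc3 stretch holds another ATTGG directly after it.
Tle3 (chr9:61372310-61372334): tcgcactcccATTGGccaacgctag
Srgap2 and Fam72a (chr1:131527380-131527404): cacccctttgCCAATcaccgcccgc
Anp32a (chr9:62341218-62341242): caggatgcccATTGGaccctgcccc
Rnf5 and Agpat1 (chr17:34603870-34603894): ctcagaagggATTGGctcaggccta
Cmip (chr8:117256643-117256667): cccgcggggaCCAATcgcgcgcgcc
Arrdc3 (chr13:80885633-80885657): ccaggcgttgATTGGattgggctgg
Setd1b (chr5:123141168-123141192): cctgctccagCCAATtacctaccca
Meis1 (chr11:19020542-19020566): gagagctccaCCAATcggaaggcgt
Gsk3b (chr16:38089311-38089335): gacgtctctgATTGGttccggcttg

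These domains belonged to varied genes. Tle3 (NF-Y-ChIP fold enrichment 9.38) carried the highest H3K4me3-ChIP fold enrichment of the broad domains. Srgap2 and Fam72a (9.30), of which Srgap2 acts in neuronal migration, shared 1 peak at -44 bp from the Srgap2 TSS. Anp32a (8.99) encodes a nuclear phosphoprotein, Rnf5 (7.77), which shares its domain with Agpat1, an ubiquitin ligase, and Gsk3b (6.84 and 5.47, with a peak on either side of its TSS) the kinase of the Wnt pathway. The Setd1b peak (7.41) was at -85 bp from the TSS of AI480526, a lincRNA gene, and the Arrdc3 peak (7.42) at -89 bp from that of 1700023H06Rik, rather than at the coding start. At Meis1 (6.96), a homeobox gene, the summit was at -1555 bp from the nearest TSS, the only one beyond 500 bp. Cmip (7.77) had its summit at -422 bp.

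NF-Y-ChIP peaks and broad domains were also counted over the TF and cell cycle lists. Of the 84 marked genes in the 3 telencephalic TF lists, 46 were in broad domains. Of the 84, 2 had an NF-Y-ChIP peak in their domain (2.38%, interval 0.655 to 8.27%). One of these, Dmrta2, a doublesex-related factor of the cortical hem and progenitors, was in a broad domain of 9493 bp. The other, Insm1, named after its value was seen, was in a shorter domain of 3870 bp. Of the 97 marked S and G2/M phase genes, none was in a broad domain (interval 0 to 3.81%, which contains the background of 2.38%) and 25 had an NF-Y-ChIP peak in theirs (25.8%, interval 18.1 to 35.3%). The median domain length was 4163 bp (interval 3736 to 5247) for the TF genes and 1874 bp (1712 to 2032) for the cell cycle genes. Pax6, Sox2, Nr2f1, Meis2 and the 3 Mir9 loci had no NF-Y-ChIP peak in their domains, like 290 of the 312 members (92.9%).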

How the data were processed

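Chromatin immunoprecipitation libraries from E13.5 mouse cortices were sequenced by the study. Reads were trimmed with Trimmomatic and aligned to mm10 (GRCm38) by the authors, and the submitters' processing notes name Bowtie2 2.2.8, FastQC and MACS2 2.1.2. Peaks were called by the authors in each ChIP library, with a p-value limit of 0.001 for NF-Y-ChIP and a q-value limit of 0.05 for H3K4me3-ChIP. The study used the input as its negative control, and whether MACS2 was given it as the control is not given in the sources used here. The deposited lists give for each peak its fold enrichment, a ratio of ChIP signal to the caller's background, its p-value and q-value as −log10 values, and a deposited score.

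H3K4me3-ChIP peaks with gaps of 1000 bp or less were joined, and domains of 4000 bp or longer were kept. Domains were named by GENCODE M21 TSSs inside them. Sequence was read from the RefSeq GRCm38.p6 genome. Motifs were CCAAT and its reverse complement ATTGG. Shares have Wilson 95% intervals, medians order-statistic intervals and rates exact Poisson intervals. With 1 library per antibody no test between groups was possible. Genes were named as the 12 longest domains, the members of fixed lists in a broad domain (all up to 10, otherwise the 5 longest), the 10 highest in NF-Y-ChIP fold, the 3 on each side of the length limit, the 5 highest and 3 lowest in H3K4me3-ChIP fold, the 5 longest without a TSS, the 3 with most peaks, and genes the study names; 1 gene that this rule takes is not reported here. S and G2/M phase genes came from Seurat 5.3.0. The domains and lists were chosen with earlier results of these data known. Intervals were computed with SciPy 1.17.1, tables were handled with pandas 2.3.3 and NumPy 2.4.6, the genome was read with pysam 0.24.0 and plots were drawn with matplotlib 3.10.9, all under Python 3.11.15, and the code was tested on simulated peaks. Alternatives changed the gap, the length limit, the peak threshold, the TSS set and the CpG window.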

Additional observations from a re-analysis of the deposited data

How the results depend on the processing

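With 1 library per antibody no replicate could be left out. No paired analysis was possible because each antibody has a single library. Of 66 alternatives 45 stayed within the limits set for an unchanged value and 21 moved. Without joining peaks, 165 regions reached 4000 bp, 99.4% held a TSS, an NF-Y-ChIP peak overlapped 4.24% of them and 3.54% of the rest, 1.18% of marked protein-coding genes were in them and 44.3% of the marked cortical TF genes. In the main setting 63.5% of the marked genes of both cortical TF lists were in broad domains (40 of 63). The share of protein-coding genes was 2.0% with gaps of 500 bp or less and 3.64% with 2000 bp. A limit of 3000 bp gave 824 domains, 6.60% of protein-coding and 79.4% of cortical TF genes, and a limit of 5000 bp gave 140 domains, 1.05% and 46.0%. With 1 protein-coding gene per domain the NF-Y-ChIP share of shorter domains was 4.32% and that of broad ones 6.84%, with overlapping intervals, and with a summit within 500 bp of a protein-coding TSS, over all shorter domains, it was 3.42%, against 6.09% of the broad ones, with intervals that do not overlap. The share with a TSS was 90.4% from gene 5′ ends and 93.3% from protein-coding TSSs. The CpG ratio was 0.749 within 1000 bp of the TSS. Against only shorter domains of 3000 bp or longer, an alternative added after seeing the data, the NF-Y-ChIP share was 8.01% and the number per Mb 23.5. The cause of these shifts was not tested beyond what each setting changes by construction. The unknown depth limits all shares, since a weak peak may be missed.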
